A study of Mus musculus with 12 samples.

Results

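In brain RNA, 10 genes of reactive astrocytes were followed: Gfap, Vim, Cd44, S1pr3, Steap4, Aspg, Ptx3, Emp1, Cd109 and Nes. They were chosen by name, as genes known to be induced when astrocytes respond to injury or inflammation. Earlier results of these data were known at that choice, so counts of members called are a description. All 10 were found among the 21983 genes of the deposited count table, and all 10 passed the filter on low counts. Astrocytes react to damage by enlarging their processes and making more intermediate filament protein, and they change the receptors and matrix-binding proteins on their surface. Gfap, Vim and Nes encode filament proteins, Cd44 and S1pr3 encode receptors, and Ptx3 encodes a secreted protein. Steap4 and Aspg encode enzymes, and Emp1 and Cd109 encode other membrane proteins. Several members are also made by other cells, and the examples given here are not a full list. Vim is made by endothelium, ependyma and leukocytes, Cd44 by leukocytes, Nes by neural progenitors and growing vessels, and Ptx3 by myeloid and endothelial cells. Which cells made the RNA of any member was not measured.

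RNA-seq was performed on brains of wild-type C57BL/6 mice aged 6 weeks. The 3 groups, with 4 libraries each, were mice with experimental cerebral malaria (ECM) given artesunate, an antimalarial drug, for 4 days (treated ECM), mice with ECM and no artesunate, and normal control mice. ECM is the mouse disease in which a malaria infection leads to inflammation of the brain vessels and to neurological signs. No source used here gives the parasite, the time since infection or the artesunate dose, so time and treatment cannot be told apart. The labels call the libraries replicates and do not say whether each came from its own mouse, so p-values measure only the spread between these libraries.

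Reads assigned to genes numbered 13342177 to 18886822 per library. Markers of neurons, oligodendrocytes and resting astrocytes were abundant in all 12 libraries, with summed levels of 5372 to 8625, 5881 to 11235 and 8744 to 11100.2 counts scaled to library size (CPM). Markers of cerebellum varied widely. The mean log2 CPM of 9 cerebellum markers was 2.41 in ECM 1, 2.22 in ECM 3 and 2.48 in control 4, against 4.63 to 8.33 in the other libraries. Mitochondrial transcripts took 15.2% of the reads in ECM 2, 13.2% in ECM 3 and 10.7% in control 4, against 4.74% to 7.89% elsewhere. Counts of changed members are therefore also given without control 4, ECM 2 and ECM 3, and without control 4, ECM 1 and ECM 3. All levels below are CPM scaled by TMM, and log2 fold changes are given with their standard errors.

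Promoter windows of 4 members are shown because they differ in the letters found in them: Gfap, the most abundant member, Steap4 and Emp1, the members with the largest fold changes in ECM, and Nes, the member with no call. Windows run from 250 bases before to 50 bases after a RefSeq start on GRCm38.p6, and 9 of the 10 members had one. Searched on both strands were TTCNNNGAA, the core that STAT factors bind, and TGANTCA, the core that AP-1 binds. Each motif reads the same on either strand. Capitals mark the matches.
Gfap: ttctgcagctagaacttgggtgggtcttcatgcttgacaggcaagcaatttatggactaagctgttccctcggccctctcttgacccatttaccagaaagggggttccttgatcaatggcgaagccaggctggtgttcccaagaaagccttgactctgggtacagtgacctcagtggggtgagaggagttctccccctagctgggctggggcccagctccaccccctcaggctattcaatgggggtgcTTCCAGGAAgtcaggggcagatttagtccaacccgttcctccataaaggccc
Steap4: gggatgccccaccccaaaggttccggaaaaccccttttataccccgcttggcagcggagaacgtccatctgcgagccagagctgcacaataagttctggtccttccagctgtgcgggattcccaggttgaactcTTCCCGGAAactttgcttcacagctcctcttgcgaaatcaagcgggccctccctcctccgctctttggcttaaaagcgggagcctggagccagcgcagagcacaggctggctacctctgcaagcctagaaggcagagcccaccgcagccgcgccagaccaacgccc
Emp1: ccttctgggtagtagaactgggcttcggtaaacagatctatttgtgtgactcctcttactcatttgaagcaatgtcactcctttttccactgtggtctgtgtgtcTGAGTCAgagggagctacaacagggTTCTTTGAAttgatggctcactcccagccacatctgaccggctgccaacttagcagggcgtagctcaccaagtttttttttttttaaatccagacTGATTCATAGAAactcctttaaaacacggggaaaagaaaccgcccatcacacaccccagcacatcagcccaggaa
Nes: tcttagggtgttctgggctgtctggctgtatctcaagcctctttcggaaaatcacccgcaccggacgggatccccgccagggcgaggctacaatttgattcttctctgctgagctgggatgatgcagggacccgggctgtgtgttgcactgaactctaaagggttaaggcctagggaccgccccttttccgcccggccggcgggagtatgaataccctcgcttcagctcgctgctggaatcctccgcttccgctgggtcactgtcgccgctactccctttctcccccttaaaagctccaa
The Gfap window lies on chromosome 11, 102897151 to 102897450, minus strand. The others lie on the plus strand, Steap4 on chromosome 5 at 7960222 to 7960521, Emp1 on chromosome 6 at 135362681 to 135362980, and Nes on chromosome 3 at 87970843 to 87971142.

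The STAT letters occurred in the windows of 3 members. Counted from the annotated start, the match began at -2 in Gfap (TTCCAGGAA), at -116 in Steap4 (TTCCCGGAA), and at -120 (TTCTTTGAA) and -22 (TTCATAGAA) in Emp1. The AP-1 letters occurred in 1 member, Emp1, at -145 (TGAGTCA) and -25 (TGATTCA), and the match at -25 overlaps the STAT match at -22. A second Emp1 window and the windows of Vim, Cd44, S1pr3, Aspg, Ptx3 and Nes held neither. Across all 32851 mouse windows of the same length, 8.30% held the STAT letters and 7.81% the AP-1 letters. Among the 14583 windows of tested genes, the shares were 6.82% and 5.33%. These are matches of letters, and no factor's binding was measured.

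ECM against control asks which members differ in the diseased brain. Of the 10 members, 9 rose in ECM and 0 fell. Across all 14621 genes tested, 10.3% were called in this comparison, 7.00% higher and 3.28% lower. The same 9 members had every ECM library above every control library, an arrangement found in that direction in 8.54% of all genes tested. Their log2 fold changes ran from 0.71 for S1pr3 to 3.71 for Emp1. The median over the 10 members was 2.0, and over all genes tested it was -0.02. Without control 4, ECM 2 and ECM 3, 10 members were called higher, and without control 4, ECM 1 and ECM 3 it was 9. With only the ECM and control libraries in the fit, 5 were called. Over all genes, these settings called 2782, 2158 and 868 in turn, against 1503 in the fit of all 12 libraries. In RNA from brain tissue, more cells that express a gene and more of its RNA per cell cannot be told apart.

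Treated ECM against ECM asks which members differ with artesunate. Here 5 of 10 members were lower in treated ECM, namely Gfap, Cd44, S1pr3, Emp1 and Cd109, and 0 were higher. In all genes tested, 8.40% were called, 3.32% higher and 5.07% lower. Every treated library lay below every ECM library in the same 5 members, and in 10.5% of all genes tested. The median log2 fold change was -1.36 over the members and 0.01 over all genes tested. Without control 4, ECM 2 and ECM 3, 7 members were called lower, without control 4, ECM 1 and ECM 3 it was 8, and by DESeq2 it was also 8. Calls over all genes rose as well under these settings, to 2281, 1822 and 2153 in turn, against 1228 by edgeR on all 12 libraries. The set without control 4, ECM 1 and ECM 3 was chosen after seeing the data. Other settings gave fewer calls. With only the treated ECM and ECM libraries in the fit, 4 members and 1068 genes were called. Leaving out any 1 treated library also left 4 members called, with 551 to 643 genes.

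Treated ECM against control asks what remains after treatment. By edgeR 0 of 10 members were called, while 4 had an unadjusted p below 0.05 (Gfap, Cd44, Steap4 and Emp1), and DESeq2 called 1, Gfap. Among all genes tested, 2.04% were called, 1.98% were called higher and 11.4% had an unadjusted p below 0.05. The median log2 fold change of the members was 0.78, and that of all genes tested was 0.0041. Steap4 was the member with every treated library above every control library, which held for 10.8% of all genes tested. The comparisons share libraries, so their fold changes are not independent of each other.

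**Figure D1:**
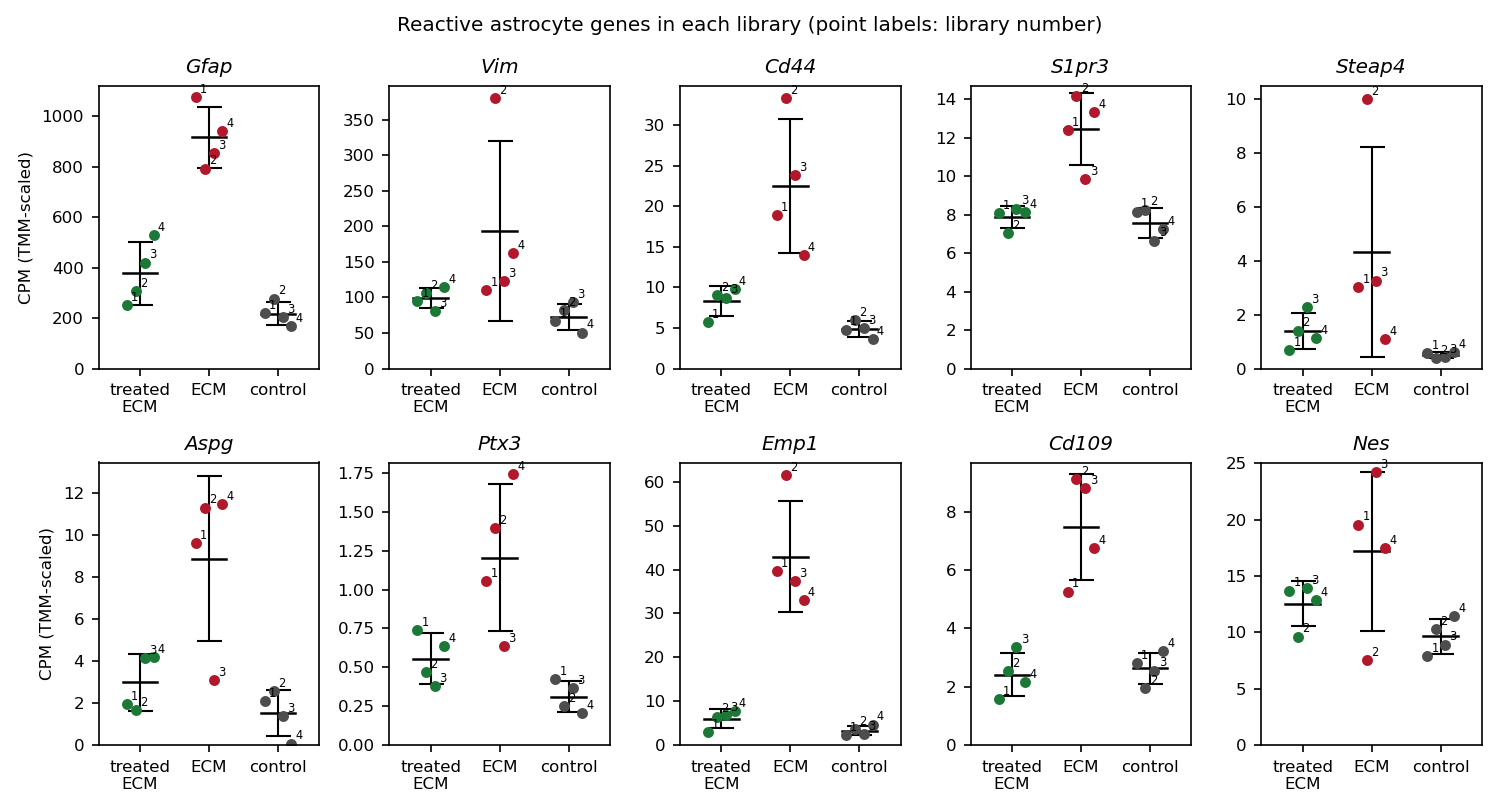
Level of each member in every library (y axis, TMM-scaled CPM from 0, a separate scale for each gene), with treated ECM, ECM and control from left to right. Points are libraries with their number, and bars are the mean ± SD of 4 libraries. The 4 ECM libraries of Gfap sit between 792 and 1074 CPM, above all treated and control libraries, while 1 ECM library of Vim and of Steap4 (ECM 2) stands above the rest.

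Gfap encodes glial fibrillary acidic protein, the main filament protein of astrocytes (chromosome 11, 102887336 to 102900912, minus strand). It had 249.9, 308, 419.6 and 529.7 CPM in treated ECM libraries 1 to 4, 1074, 792, 855 and 941 CPM in the ECM libraries, and 218, 277, 205 and 169 CPM in the control libraries. The ECM libraries lay above all others. Treated library 1 lay within the control range, and treated libraries 2 to 4 lay above it. Gfap rose 4.21-fold in ECM over control (log2 2.07 ± 0.24, adjusted p = 5.4e-05). In treated ECM against ECM it fell by 1.28 ± 0.23 on the log2 scale (adjusted p = 0.0054). Against control, the treated mean was 0.79 ± 0.23 log2 units higher and did not pass the test (adjusted p = 0.14). Without treated 1, the lowest treated library, the difference was 0.95 and passed (adjusted p = 0.044). By the DESeq2 Wald test on all 12 libraries it was 0.79 and also passed (adjusted p = 0.036).

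Vim encodes vimentin, which forms filaments together with GFAP in reactive astrocytes (chromosome 2, 13573927 to 13582826). It had 95.3, 106, 81.1 and 115 CPM in treated ECM, 109.9, 381, 122 and 163 CPM in ECM, and 66.3, 82.1, 92.8 and 50.6 CPM in control. ECM 2 stood far above every other library, and treated library 4 exceeded ECM 1. The rise in ECM over control passed (log2 1.41 ± 0.35, adjusted p = 0.019). Without ECM 2 it was 0.86 and still passed (adjusted p = 0.021), and without control 1 it was 1.37 and did not (adjusted p = 0.056). Treated ECM against ECM did not pass (log2 -0.97 ± 0.34, adjusted p = 0.097), and without ECM 2 the difference was -0.42.

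Nes encodes nestin, a filament protein of neural progenitors that reactive astrocytes can make again (chromosome 3, 87971078 to 87980451). Its levels were 13.7, 9.63, 14.0 and 12.9 CPM in treated ECM, 19.6, 7.51, 24.2 and 17.5 CPM in ECM, and 7.89, 10.3, 8.91 and 11.5 CPM in control. ECM 2, the highest library for Vim, was the lowest of all 12 for Nes, and the other ECM libraries lay above every control. The difference between ECM and control did not pass (log2 0.84 ± 0.29, adjusted p = 0.093), whereas without ECM 2 it was 1.09 and passed (adjusted p = 0.0035). Treated ECM against ECM gave -0.46 ± 0.29 (adjusted p = 0.33). That difference passed without ECM 2 (-0.71, adjusted p = 0.049).

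The proportions of the filament transcripts were compared within each library, where library scaling has no part. Differences between libraries that follow GC content can still change such a ratio. Over genes, the rank correlation of centred log2 CPM with GC content was -0.66 in control 4, -0.47 in ECM 3 and -0.32 in ECM 2. It was 0.54 in ECM 4 and 0.40 to 0.51 in treated ECM. The ratios were not corrected for GC content. Per 100 Gfap reads there were 38.2, 34.4, 19.3 and 21.6 Vim reads in treated ECM, 10.2, 48.1, 14.3 and 17.3 in ECM, and 30.4, 29.6, 45.2 and 30.0 in control. ECM 2 was the highest of all libraries, and the other ECM libraries were the lowest. Nes reads per 100 Gfap reads were 5.49, 3.14, 3.33 and 2.43 in treated ECM, 1.82, 0.952, 2.84 and 1.86 in ECM, and 3.62, 3.72, 4.36 and 6.81 in control. Every ECM library was below every control library. The mean log2 ratio of Nes to Gfap was 1.36 lower in ECM than in control (-5.84 ± 0.65 and -4.48 ± 0.42, SD, n = 4 each; two-sided exact permutation test, p = 0.029, the smallest this design allows). Over the 6 ratio tests, 0 passed after Benjamini-Hochberg adjustment, with an adjusted p of 0.17 for this one by the exact permutation test. For Vim to Gfap the exact permutation p was 0.14 in ECM against control, with groups of 4 libraries.

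**Figure D2:**
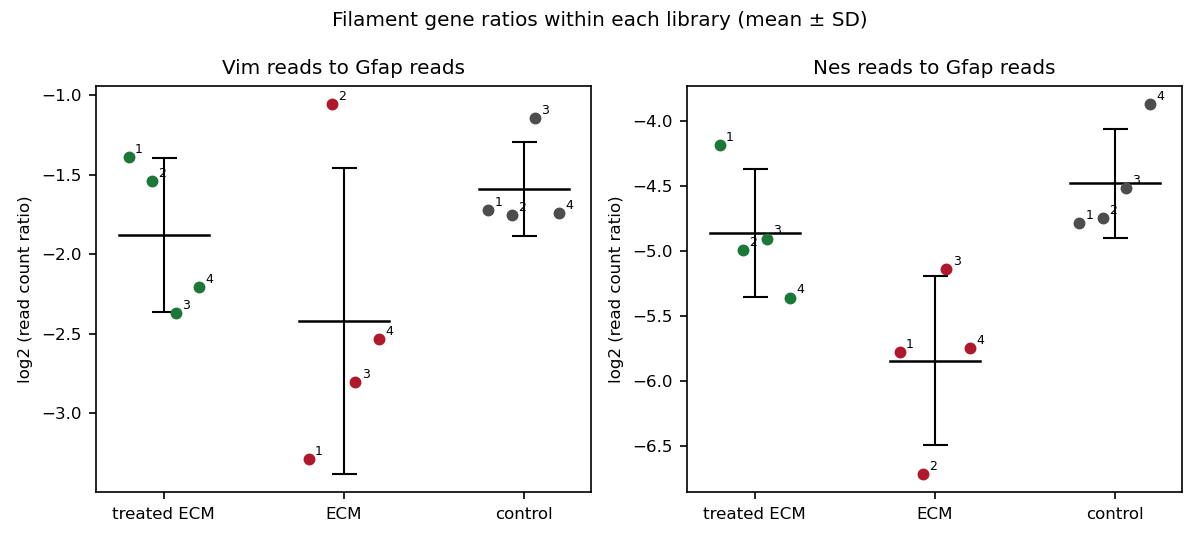
Log2 of the ratio of Vim reads (left) and Nes reads (right) to Gfap reads in each library (y axis), for treated ECM, ECM and control from left to right. Points are libraries with their number, and bars are the mean ± SD of 4 libraries. ECM 2 has the highest Vim to Gfap ratio and the lowest Nes to Gfap ratio.

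Cd44 encodes the cell-surface receptor for hyaluronan, a sugar polymer of the extracellular matrix (chromosome 2, 102811141 to 102901665, minus strand). It had 5.71, 9.09, 8.75 and 9.76 CPM in treated ECM, 18.9, 33.4, 23.8 and 14.0 CPM in ECM, and 4.8, 6.01, 4.97 and 3.62 CPM in control. All ECM libraries lay above the others, and treated library 1 alone fell within the control range. Cd44 rose in ECM over control (log2 2.21 ± 0.28, adjusted p = 0.00014) and fell in treated ECM against ECM (-1.43 ± 0.27, adjusted p = 0.0074). Treated ECM differed from control by 0.78 ± 0.28 without passing (adjusted p = 0.30).

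Of the other genes tied to hyaluronan and its receptor, which make, bind or break down hyaluronan or, like Spp1, encode another ligand of CD44, 1 of 9 tested rose in ECM and 0 fell. It was Lyve1, a receptor of lymphatic vessels and some macrophages, with 2.08 ± 0.308 CPM in treated ECM, 3.85 ± 0.986 CPM in ECM and 0.879 ± 0.218 CPM in control (SD, n = 4 each; log2 2.12 ± 0.29 for ECM against control, adjusted p = 0.00028). These genes gave 0 calls in treated ECM against ECM, and against control Lyve1 alone passed (1.24 ± 0.29, adjusted p = 0.049), a call that was lost on leaving out any library other than ECM 2 or ECM 4 (adjusted p 0.062 to 0.17).

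S1pr3 encodes a receptor for the lipid mediator sphingosine 1-phosphate (chromosome 13, 51408639 to 51422797). It had 8.09, 7.02, 8.31 and 8.11 CPM in treated ECM, 12.4, 14.2, 9.84 and 13.3 CPM in ECM, and 8.16, 8.26, 6.65 and 7.24 CPM in control. The treated and control ranges overlapped, and all ECM libraries lay above both. It had the smallest rise among the members called in ECM (log2 0.71 ± 0.17, adjusted p = 0.018), and without control 3 that call was lost (0.66, adjusted p = 0.065). Its fall in treated ECM against ECM passed (-0.66 ± 0.17, adjusted p = 0.035), but 10 of 23 alternatives lost that call, among them leaving out ECM 1, ECM 2, control 1 or any treated library (adjusted p 0.051 to 0.11). Treated ECM and control differed by 0.06 ± 0.17. The unadjusted 95% interval was -0.28 to 0.40, a normal approximation that is too narrow with so few libraries.

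Among the other genes of sphingosine 1-phosphate synthesis, breakdown, export and reception, 1 of 9 tested rose in ECM and 0 fell. This was S1pr4, a receptor mainly of leukocytes, with 0.879 ± 0.365 CPM in treated ECM, 1.51 ± 0.582 CPM in ECM and 0.295 ± 0.128 CPM in control (SD, n = 4 each; log2 2.31 ± 0.47 for ECM against control, adjusted p = 0.0055). In the comparisons with treated ECM, 0 of these genes were called.

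Emp1 encodes epithelial membrane protein 1, a small protein that spans the membrane (chromosome 6, 135362545 to 135383173). It had 2.91, 6.49, 6.91 and 7.67 CPM in treated ECM, 39.6, 61.5, 37.5 and 33.1 CPM in ECM, and 2.35, 3.63, 2.48 and 4.65 CPM in control. All ECM libraries lay far above the other groups, and treated library 1 lay within the control range. It rose 13.1-fold in ECM over control (log2 3.71 ± 0.34, adjusted p = 1.0e-05) and was 7.16-fold lower in treated ECM than in ECM (log2 -2.84 ± 0.33, adjusted p = 0.00046). In both comparisons these were the largest changes among the members. Treated ECM was 0.87 ± 0.32 log2 units above control without passing (adjusted p = 0.33).

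Cd109 encodes a membrane-anchored glycoprotein that binds TGF-beta and dampens its signal (chromosome 9, 78615546 to 78716253). Its levels were 1.59, 2.54, 3.36 and 2.15 CPM in treated ECM, 5.27, 9.13, 8.81 and 6.76 CPM in ECM, and 2.83, 1.94, 2.56 and 3.21 CPM in control. ECM libraries were all above the rest, and treated and control libraries were intermixed. Cd109 rose in ECM (log2 1.5 ± 0.28, adjusted p = 0.0032) and fell in treated ECM against ECM (-1.63 ± 0.28, adjusted p = 0.0047). The difference between treated ECM and control was -0.13 ± 0.29. Its unadjusted 95% interval, by the same normal approximation and so also too narrow, was -0.69 to 0.43.

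Of 12 TGF-beta genes tested, for ligands, receptors, SMAD proteins and the latent ligand-binding protein Ltbp1, 2 rose and 1 fell in ECM. Tgfb1, the ligand made mainly by immune cells, had 8.61 ± 1.78 CPM in treated ECM, 13.4 ± 3.22 CPM in ECM and 5.71 ± 0.914 CPM in control (log2 1.23 ± 0.23 for ECM against control, adjusted p = 0.0028). The receptor Tgfbr2 had 27.7 ± 5.02, 37.8 ± 3.62 and 23.2 ± 0.632 CPM in treated ECM, ECM and control (0.70 ± 0.15, adjusted p = 0.0081). Tgfb3, another ligand, fell to 9.13 ± 1.34 CPM in ECM, against 15.0 ± 0.528 CPM in control (-0.71 ± 0.17, adjusted p = 0.016), and was 16.5 ± 2.65 CPM in treated ECM (SD, n = 4 each). Tgfb3 was the only gene of this list called in treated ECM against ECM, where it was higher (0.85 ± 0.17, adjusted p = 0.0098), and 0 were called in treated ECM against control. Without ECM 1 the Tgfb3 call against control was lost (-0.63, adjusted p = 0.055).

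Steap4 encodes a metal-reducing enzyme of cell and endosome membranes (chromosome 5, 7960457 to 7982213). It had 0.688, 1.40, 2.28 and 1.14 CPM in treated ECM, 3.01, 9.98, 3.25 and 1.07 CPM in ECM, and 0.586, 0.376, 0.438 and 0.615 CPM in control. These levels rest on 13 to 36 reads per treated library, 21 to 129 per ECM library and 6 to 11 per control library. ECM 2 stood far above the next ECM library, while ECM 4 lay among the treated libraries. The rise in ECM passed (log2 3.07 ± 0.62, adjusted p = 0.0055) and was 2.24 without ECM 2 (adjusted p = 0.013). Treated ECM against ECM did not pass (-1.64 ± 0.56, adjusted p = 0.087). It passed without ECM 4 (-1.97, adjusted p = 0.023) and was -0.82 without ECM 2.

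Aspg encodes an asparaginase (chromosome 12, 112106679 to 112127559). It had 1.96, 1.67, 4.12 and 4.18 CPM in treated ECM, 9.63, 11.3, 3.10 and 11.5 CPM in ECM, and 2.08, 2.57, 1.39 and 0.0683 CPM in control. Control 4 rested on 1 read and ECM 3 was far below the other ECM libraries. Both are among the libraries with low cerebellum markers and among those with high mitochondrial shares. ECM 1, also low in cerebellum markers, had 9.63 CPM, and ECM 2, also high in mitochondrial share, had 11.3 CPM. The part of these library features in the Aspg values was not tested. Aspg rose in ECM over control (log2 2.52 ± 0.64, adjusted p = 0.021), and the call was lost without ECM 4 (2.37, adjusted p = 0.051) or control 3 (2.48, adjusted p = 0.066). Treated ECM against ECM did not pass (-1.57 ± 0.61, adjusted p = 0.12), and it passed without control 4 (-1.58, adjusted p = 0.027).

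Ptx3 encodes pentraxin 3, a secreted pattern recognition protein that binds complement (chromosome 3, 66219910 to 66225805). It was the least abundant member, with 6 to 14 reads per treated library, 8 to 34 per ECM library and 3 to 8 per control library. Its levels were 0.740, 0.468, 0.381 and 0.634 CPM in treated ECM, 1.05, 1.39, 0.635 and 1.74 CPM in ECM, and 0.426, 0.250, 0.365 and 0.205 CPM in control. ECM 3 lay within the treated range, and all ECM libraries were above all controls. The rise in ECM passed (log2 1.93 ± 0.42, adjusted p = 0.0090), and treated ECM against ECM did not (-1.11 ± 0.39, adjusted p = 0.096). Ptx3 lies inside the gene Veph1 on the other strand, and the library kit is not described as strand-specific in the sources used here, so reads of both genes may not be fully separated.

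Of 9 relatives tested in the Steap, asparaginase, Emp and pentraxin families, 2 rose and 0 fell in ECM. They were Emp3, with 3.77 ± 0.805 CPM in treated ECM, 5.26 ± 2.83 CPM in ECM and 1.82 ± 0.313 CPM in control (SD, n = 4 each; log2 1.53 ± 0.39 for ECM against control, adjusted p = 0.022), and the neuronal pentraxin Nptx2 (log2 1.14 ± 0.26, adjusted p = 0.013). The Emp3 call was lost without ECM 2, control 2 or control 3 (adjusted p 0.054 to 0.061). In the comparisons with treated ECM, 0 relatives were called.

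**Figure D3:**
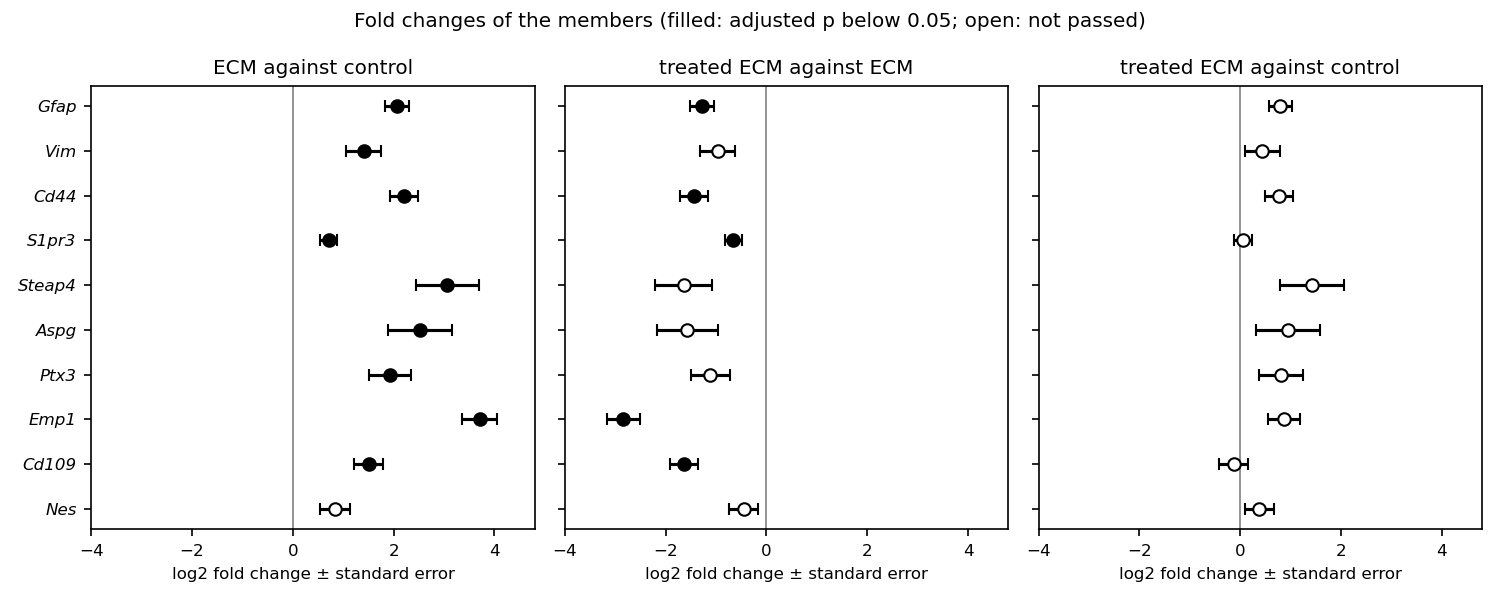
Log2 fold change ± standard error (x axis) of each member (rows) in 3 panels, 1 for each comparison, from edgeR on all 12 libraries. Filled points passed an adjusted p of 0.05. In ECM against control 9 points are filled, all right of 0, in treated ECM against ECM 5 are filled, all left of 0, and in treated ECM against control 0 are filled.

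The members also differed in how much of the ECM difference was left in treated brains. For each of the 9 members called in ECM, the treated against control log2 fold change was divided by that of ECM against control. The share was lowest for Cd109 (-8.68%) and S1pr3 (7.90%), followed by Emp1 (23.4%), Vim (31.4%), Cd44 (35.1%), Aspg (37.6%), Gfap (38.2%), Ptx3 (42.3%) and Steap4 (46.5%). The order rested in part on 1 library: without ECM 2 the share was 51.6% for Vim and 63.6% for Steap4, the highest of the 9. On leaving out each library Vim ran from 24% to 51.6%, Steap4 from 34.9% to 63.6%, S1pr3 from -0.13% to 15.1% and Cd109 from -22.2% to 1.90%. The median of these 9 was 35.1%. A share for each treated library was computed from log2 CPM with a small count added, not from the fitted fold changes. Its median was 14.2%, 27.5%, 30.0% and 47.4% in treated libraries 1 to 4, an SD of 13.6 percentage points. These values are therefore not a split of the 35.1% by library. No test was made of these shares, and both fold changes use the same controls.

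Per kilobase of exon, Gfap was the most abundant member in every group, averaging 89.3 CPM per kb in treated ECM, 217 in ECM and 51.6 in control, followed by Vim with 20.9, 40.9 and 15.4. Below them the order differed between groups. In ECM the third member was Emp1 at 7.23 CPM per kb, then Cd44 at 3.32, S1pr3 at 2.79, Nes at 2.68 and Aspg at 2.52. Steap4 followed at 1.37, Cd109 at 1.09 and Ptx3 at 0.449. In treated ECM Emp1 stood at 1.01, below Nes at 1.95, S1pr3 at 1.77 and Cd44 at 1.23, and in control at 0.552, below S1pr3 at 1.70, Nes at 1.5 and Cd44 at 0.716. Many of these neighbours, such as S1pr3 and Nes, overlapped between libraries. The spread within ECM was smallest for Gfap (coefficient of variation 13.3%) and S1pr3 (15.0%) and largest for Vim (65.3%) and Steap4 (89.9%).

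Other genes known from reactive astrocytes were read from the same fit. Of 7 further pan-reactive genes, induced in many kinds of injury, 6 rose in ECM, 2 fell in treated ECM against ECM and 2 were higher in treated ECM than in control. Serpina3n, a protease inhibitor gene measured in 3 treated libraries, had 22.3 ± 7.37 CPM in treated ECM (SD, n = 3), 136 ± 27.9 CPM in ECM and 17.2 ± 1.25 CPM in control (SD, n = 4 each). It fell in treated ECM against ECM (log2 -2.60 ± 0.25, adjusted p = 0.00021) and did not differ by test from control (0.38 ± 0.23, adjusted p = 0.504). Lcn2, the siderophore-binding lipocalin 2, had 44.3 ± 26.0 CPM in treated ECM, 48.5 ± 30.7 CPM in ECM and 0.380 ± 0.163 CPM in control (SD, n = 4 each). In treated ECM it was higher than in control (6.87 ± 0.67, adjusted p = 4.5e-05). Treated ECM against ECM gave -0.13 ± 0.46 for Lcn2 (adjusted p = 0.88).

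Cxcl10, a T-cell attractant, was likewise higher in treated ECM than in control (68.2 ± 21.8, 113 ± 75.0 and 0.389 ± 0.309 CPM in treated ECM, ECM and control; log2 7.49 ± 0.66, adjusted p = 1.8e-05). Osmr, a subunit of the oncostatin M receptor, had 13.8 ± 4.33 CPM in treated ECM, 48.3 ± 18 CPM in ECM and 6.41 ± 3.38 CPM in control (SD, n = 4 each). It fell in treated ECM against ECM (log2 -1.81 ± 0.36, adjusted p = 0.010). Timp1, a metalloproteinase inhibitor, rose in ECM (3.33 ± 0.71, adjusted p = 0.0076). The small heat shock gene Hspb1 did not pass in ECM against control (1.72 ± 0.52, adjusted p = 0.052), where it passed without ECM 3 (2.04, adjusted p = 0.0096) or treated 1 (adjusted p = 0.045).

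Of 11 further genes of the A1 type, described in astrocytes after inflammatory stimuli, 10 rose in ECM, 7 fell in treated ECM against ECM and 5 were higher in treated ECM than in control. Gbp2, an interferon-induced GTPase, had 204 ± 58.6 CPM in treated ECM, 247 ± 101 CPM in ECM and 4.70 ± 0.559 CPM in control (SD, n = 4 each; log2 5.44 ± 0.34 for treated ECM against control, adjusted p = 1.1e-06). The immunoproteasome gene Psmb8 had 26.3 ± 6.51, 48.8 ± 9.90 and 2.17 ± 0.462 CPM in treated ECM, ECM and control (3.59 ± 0.25 for treated ECM against control, adjusted p = 2.3e-06). H2-T23 and Iigp1, an MHC class I gene and an immunity-related GTPase gene, were also higher in treated ECM than in control (2.17 ± 0.27, adjusted p = 0.00042, and 4.97 ± 0.31, adjusted p = 1.1e-06). The count of 7 that fell against ECM was 3 without treated 1 and 4 without treated 2. H2-T23 lost that call without any treated library or ECM 1, ECM 2 or ECM 4, Iigp1 without treated 1 or treated 2, and Psmb8 without treated 1 or treated 3 (adjusted p 0.056 to 0.10). H2-T23 has similar class I relatives that can share reads. Many of the A1-type genes are interferon-induced in other cell types too.

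Of 8 further genes of the A2 type tested, described in astrocytes after ischemia, 6 rose in ECM, 3 fell in treated ECM against ECM and 2 were higher in treated ECM than in control. Slc10a6, a transporter of sulfated steroids, had 8 reads over the treated libraries, 424 over the ECM libraries and 2 over the controls. Its treated level of 0.124 ± 0.093 CPM was lower than the ECM level of 7.38 ± 1.75 CPM (SD, n = 4 each; adjusted p = 0.00021). Tgm1, a protein crosslinking enzyme gene, had 16, 123 and 2 reads over treated ECM, ECM and control (adjusted p = 0.011 for treated ECM against ECM). The prostaglandin synthase gene Ptgs2 was higher in treated ECM than in control (31.5 ± 5.78 and 9.24 ± 3.62 CPM; log2 1.77 ± 0.26, adjusted p = 0.0014), as was the lipopolysaccharide co-receptor Cd14 (10.4 ± 3.59 and 2.45 ± 0.707 CPM; 2.08 ± 0.38, adjusted p = 0.0089). Cd14 was also the other gene that fell in treated ECM against ECM (-1.30, adjusted p = 0.041), a call lost on leaving out any library other than ECM 3 or control 4 (adjusted p 0.054 to 0.12).

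Of 12 genes of gp130 and STAT3 signalling tested, a route to Gfap expression in astrocytes, 6 rose in ECM, 3 fell in treated ECM against ECM and 1 was higher in treated ECM than in control. Stat3, the transcription factor, had 79.9 ± 13.3 CPM in treated ECM, 139 ± 20.3 CPM in ECM and 58.9 ± 4.52 CPM in control (SD, n = 4 each). It rose in ECM (log2 1.24 ± 0.16, adjusted p = 0.00013) and fell in treated ECM against ECM (-0.80 ± 0.16, adjusted p = 0.0084). Its feedback inhibitor Socs3 had 9.23 ± 2.61, 27.1 ± 17.7 and 1.41 ± 0.641 CPM in treated ECM, ECM and control, and it was the gene higher in treated ECM than in control (2.68 ± 0.50, adjusted p = 0.010). The ligand Lif had 0.437 ± 0.115 CPM in treated ECM, 2.69 ± 1.66 CPM in ECM and 0.646 ± 0.256 CPM in control, and fell in treated ECM against ECM (-2.61 ± 0.48, adjusted p = 0.0057). Without control 4 the genes of this list that fell in treated ECM against ECM numbered 6, and those higher in treated ECM than in control 2.

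Of 8 genes for filament partners, nuclear lamins and proteins that link to filaments or the cell cortex, 2 rose in ECM and 0 fell. Lmna, a lamin of the nuclear envelope, had 42.3 ± 2.04 CPM in treated ECM, 66.2 ± 24.1 CPM in ECM and 30.1 ± 10.1 CPM in control (log2 1.14 ± 0.28 for ECM against control, adjusted p = 0.021), a call lost without ECM 1 or ECM 4 (adjusted p 0.056 and 0.062). Ezr, a membrane to actin linker of astrocyte processes, had 69.1 ± 9.60, 115 ± 25 and 58.0 ± 19.2 CPM in treated ECM, ECM and control (0.99 ± 0.23, adjusted p = 0.013; SD, n = 4 each). Without ECM 2 the genes that rose numbered 4. None of the 8 was called in a comparison with treated ECM, although without ECM 2 there were 2 called lower than in ECM, and without control 4 there was 1.

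Homeostatic astrocyte genes, those of resting astrocytes, rose in ECM in 4 of 15 and fell in 0. They were Aldh1l1, a folate enzyme gene used as an astrocyte marker (84.3 ± 6.93, 136 ± 26.1 and 61.7 ± 14.6 CPM in treated ECM, ECM and control; log2 1.14 ± 0.19, adjusted p = 0.0016), the gap junction gene Gjb6 (0.91 ± 0.21, adjusted p = 0.014), the transcription factor Sox9 (0.65 ± 0.17, adjusted p = 0.028) and Ndrg2 (0.54 ± 0.13, adjusted p = 0.017). The Sox9 call was lost without ECM 4, control 1 or control 3, and the Ndrg2 call without control 1 or control 3. Of the 15, 2 were called lower in treated ECM against ECM and 0 were called in treated ECM against control. The 2 were Aldh1l1 (-0.69, adjusted p = 0.043) and Gjb6 (-0.89, adjusted p = 0.021), and both calls were lost without treated 1, treated 2 or treated 4 (adjusted p 0.061 to 0.12). The Aldh1l1 call was also lost without treated 3, ECM 1, ECM 4, control 1, control 2 or control 3 (adjusted p 0.052 to 0.10). Over the 15 genes, the median log2 fold change was 0.19 in ECM against control, -0.24 for treated ECM against untreated ECM, and -0.05 for treated ECM against control. Their summed level was 8744 to 9792 CPM in treated ECM, 9398 to 11100.2 CPM in ECM and 8930 to 10595 CPM in control, and these ranges overlapped.

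Some markers of other cells also differed between the groups, in patterns that varied by cell type. Their part in the members' differences was not tested. Of 12 leukocyte markers 11 rose in ECM, 9 fell in treated ECM against ECM and 11 were higher in treated ECM than in control. Their summed level was 159 to 212 CPM in treated ECM, 300.3 to 484 CPM in ECM and 38.3 to 94.0 CPM in control, with none of the 12 at 0 in all libraries. In control, Coro1a, the marker not called in ECM against control, held 20.8 to 79.8 CPM of that sum. The median log2 fold change of the 12 was 4.79 in ECM against control and -1.72 in treated ECM against ECM. In treated ECM against control it was 3.86. Without treated 1 or treated 3, 5 leukocyte markers fell in treated ECM against ECM. Of 10 endothelial markers 5 rose and 1 fell in ECM, and 4 fell in treated ECM against ECM. The 5 were 3 without control 1 and 2 without control 3, and the 4 were 2 without treated 3. They summed to 209 to 258 CPM in treated ECM, 356 to 394 CPM in ECM and 189 to 233 CPM in control, so that the ECM libraries stood above the others, as they did for 5 of the members.

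Of 8 microglia markers tested 1 rose and 3 fell in ECM, and Trem2 had 0 reads in every library. The microglia markers that fell numbered 1 without ECM 1, control 3 or control 4, and those that rose 2 without ECM 2 and 0 without control 1. Mural cell and fibroblast markers rose in 1 and fell in 1 of 10. Ependymal and choroid plexus markers, 8 in all, gave 0 calls and ranged from 88.4 to 860.4 CPM in treated ECM, from 19.7 to 393 CPM in ECM and from 72.8 to 611 CPM in control. ECM 2, the highest ECM library for Vim, Cd44, S1pr3, Steap4, Emp1 and Cd109, also had the highest leukocyte sum (484 CPM), the highest cerebellum marker sum (4655 CPM) and the highest mitochondrial share. It was the lowest ECM library for Gfap and Nes. ECM 4, next in leukocyte sum (423 CPM), was the lowest ECM library for Cd44, Steap4 and Emp1 and the highest for Aspg and Ptx3.

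**Figure D4:**
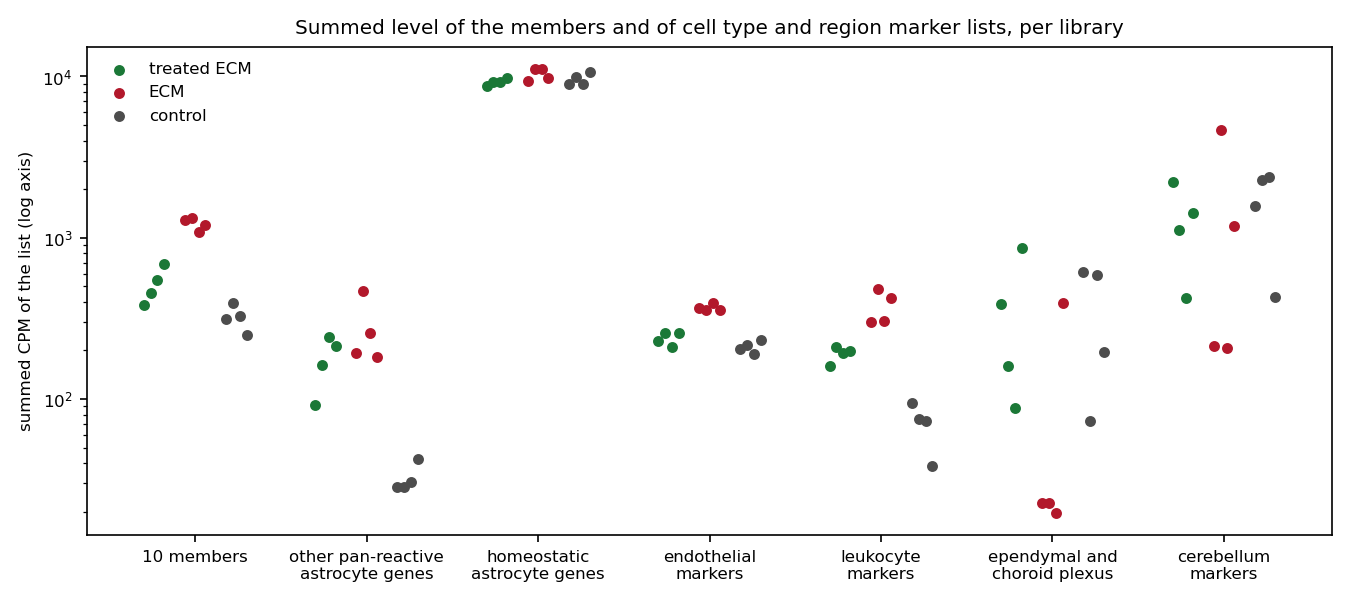
Summed CPM of the 10 members and of marker lists (x axis) in each library, on a log y axis, with treated ECM, ECM and control from left to right within each list. Each point is 1 library. The members sum to 381 to 691 CPM in treated ECM, 1089 to 1321 CPM in ECM and 251 to 392 CPM in control, and leukocyte markers have the same order of groups, while the cerebellum and ependymal lists spread widely inside every group.

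The genes most like Gfap were found by the root mean square difference of centred log2 CPM over the 12 libraries, among 13189 genes. They were Trim25 (0.253), a ubiquitin ligase gene, Cdh5 (0.265), the cadherin of endothelial junctions, Elf4 (0.278), a transcription factor gene, Col4a2 (0.289), a basement membrane collagen gene, and Slc11a1 (0.312), a metal transporter gene of phagocytes. Cdh5, the endothelial marker among them, had 21 ± 2.70 CPM in treated ECM, 51.6 ± 9.85 CPM in ECM and 15.4 ± 2.45 CPM in control (SD, n = 4 each). Of the members, Cd44 was nearest to Gfap (0.369), with 22 other genes nearer, and Aspg was furthest (0.928). The measure follows all differences between libraries, group differences included, and is a description.

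The authors' deposited tables list 8 members for ECM against control, 7 for the treated against the untreated disease and 1, Steap4, for treated ECM against control. Those tables hold genes past a minimum of fold change and an unadjusted p below 0.05, so a gene can be absent on fold change alone. S1pr3 and Nes are in none of them, and Vim is in the table of ECM against control. In the fit here, S1pr3 and Nes had the smallest rises of the members in ECM against control (log2 0.71 and 0.84). In treated ECM against ECM, Nes, S1pr3 and Vim had the smallest falls (-0.46, -0.66 and -0.97).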

How the data were processed

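Brain RNA was preserved in RNAlater, extracted with Trizol and used for NEBNext Ultra RNA libraries, per the labels' protocols. The deposited table holds the authors' read counts per gene. The submitters' processing notes name HTSeq, STAR, FastQC, Trimmomatic and build mm10, with tool versions not given in the sources used here, nor the annotation. The authors' deposited tables of 3 comparisons give, per the file headers, a log2 fold change, a p-value, a normalized signal and an FPKM for each gene. Neither signal nor FPKM entered a result, and the deposited log2 fold changes and p-values served only to list members.

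In the count table, 2212 genes with names of 8 or more characters had values displaced by 1 field, which were put back. For these genes, treated library 4 differed from the authors' read counts in 98 of 107 genes present in both, so they were fitted with 11 libraries. No member is among them.

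Here, filterByExpr removed low counts, TMM set library sizes, and the quasi-likelihood test of edgeR 4.0.16 (R 4.3.3) was fitted once to all groups, after it was tested on simulated data. Benjamini-Hochberg adjustment ran over the 14621 genes of a comparison, with calls at 0.05. Coordinates and exon lengths came from GENCODE M21 (GRCm38) by symbol, which matched 21871 genes (99.5%). Promoters came from RefSeq. Ratios were computed on counts plus 0.5. No libraries were duplicates. Depth limits genes with few reads, such as Ptx3. Alternatives included DESeq2 1.42.0 and leaving out each library. Named are all members, up to 4 called genes and 1 uncalled gene of each other list, and the 5 genes most like Gfap. The members and lists were chosen with earlier results of these data known. Figures and tables used matplotlib 3.10.9, pandas 2.3.3 and numpy 2.4.6 in Python 3.11.15.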

Additional observations from a re-analysis of the deposited data

Results flagged for a closer look

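S1pr3 in treated ECM library 2 had 7.02 CPM and stood apart below the other treated libraries, which had 8.09 to 8.31 CPM. Its gap to the nearest library, as a share of the range of the group, passed Dixon's 95% critical value for 4 samples. It was the only one of 30 groups tested (10 members in 3 groups) to pass, and chance passes about 1 group in 20. Without this library, S1pr3 in treated ECM against ECM was no longer called (log2 -0.61, adjusted p = 0.11). That loss was not particular to treated 2. The call was also lost on leaving out any other treated library, ECM 1, ECM 2 or control 1 (adjusted p 0.051 to 0.085).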

How the results depend on the processing

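In ECM against control, 217 of 229 values of single members under the alternatives kept their direction and side of the threshold, 9 calls were lost and 3 gained. In treated ECM against ECM it was 206 of 230, with 10 lost and 14 gained, and in treated ECM against control 221 of 229, with 2 gained and 6 changes of sign. The cause of these changes was not tested. Over all genes in ECM against control, 1503 were called, against 2337 with a GC-content offset, 2750 with the cerebellum score as a covariate, 868 with only the compared groups in the fit, 2782 without control 4, ECM 2 and ECM 3, and 1069 to 1698 on leaving out each library. Members called were 9, against 5 with only the compared groups and 7 to 10 on leaving out each library. In treated ECM against ECM, 1228 genes were called, against 2153 by DESeq2, 2161 with the GC offset, 2281 without control 4, ECM 2 and ECM 3, and 551 to 2109 on leaving out each library (551 to 643 without a treated library, 1976 without ECM 4 and 2109 without control 4). Members called were 5, against 8 by DESeq2, 8 without control 4, ECM 1 and ECM 3 (a choice made after seeing the data), and 4 to 6 on leaving out each library. In treated ECM against control, 298 genes were called, against 455 by DESeq2, 470 without control 4, ECM 2 and ECM 3, and 226 to 321 on leaving out each library, and members called were 0, against 1 by DESeq2 and 0 to 1 on leaving out each library. The median share remaining was 0.276 to 0.396 on leaving out each library and 0.267 without control 4, ECM 1 and ECM 3.

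Replicate numbers are shared between the groups, but libraries of the same number did not deviate together (3 of 12 pairs had a correlation above 0.1, range -0.61 to 0.30). With the replicate number as a block, 1001, 541 and 219 genes and 7, 4 and 0 members were called in the 3 comparisons.

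Changes of sign were all in values that passed no test. With the GC offset, and with the offset and the block, S1pr3 in treated ECM against control was -0.022 and -0.013, Cd109 0.054 and 0.011, Tgfb3 -0.0061 and -0.0070, and Nptx2 -0.17 and -0.17. On leaving out each library, S1pr3 ran from -0.00087 to 0.11, Cd109 from -0.33 to 0.029 and Gjb6 from -0.080 to 0.20. In treated ECM against ECM, Lcn2 ran from -0.52 to 0.38 on leaving out each library and was 0.67 without control 4, ECM 2 and ECM 3, where Gbp2 was 0.29. Hspb1 was -0.12 with the GC offset, -0.080 with the offset and the block, and -0.0056 without control 4, ECM 1 and ECM 3.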
